A study of Mus musculus with 12 samples.

Results

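Acid-sensing and ATP-gated channels of the auditory nerve were followed through the genes Asic1, Asic2, Asic3, Asic4, P2rx2, P2rx3, P2rx4 and P2rx7. Every probe set whose annotated symbol was exactly one of these names was taken, which gave 15 of the 45037 probe sets on the array and 8 of the 18193 genes named by at least 1 probe set with a single symbol. The genes were selected on their family and on measured ouabain against control changes, with Asic3 among the strongest of these, so the ouabain against control values of the 8 genes are given as a description without a test. A probe set is a group of short probes that reads one transcript or a few, and the brightest probe set stands for its gene while the others are described beside it.

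The tissue came from adult CBA/CaJ mice of 8 to 12 weeks, and the 12 arrays fall into 4 groups of 3. In the ouabain groups, 3 mM ouabain, which stops the pump that exchanges sodium for potassium, was kept at the round window of the right ear for about 60 min, and nerves were collected 3 days or 7 days later. The control groups were left ears of ouabain-treated mice at the same days. These ears had no surgery, so the operation and the drug cannot be told apart. Each array held RNA pooled from a pair of microdissected preparations of the modiolus, the core of the cochlea with the spiral ganglion, nerve fibres and glia, and the mice behind a pool are not named. The p-values therefore measure the spread between pooled samples. The values are log2 signals after robust multi-array averaging (RMA), on which a difference of 1 is a factor of 2. The array medians lay between 6.01 and 6.09, so a log2 signal under 6 is below or near the middle of an array. The number of arrays, 3 in a group, limits the precision.

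Acid-sensing ion channels are trimers that open when protons bind outside the cell and then pass sodium. Asic1 and Asic3 are found in sensory neurons, where Asic3 is known for sustained currents in acidified tissue. P2X receptors are trimers of another family that open on extracellular ATP and pass sodium and calcium. In the cochlea P2rx2 is the best known member, in hair cells and supporting cells as well as spiral ganglion neurons, while P2rx4 and P2rx7 are familiar from macrophages, microglia and glia, where P2rx7 opens only at high ATP and is linked to the inflammasome.

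The strongest signal of the 8 genes lay in Asic3, a proton-gated subunit of sensory neurons. It was 14.6-fold lower in ouabain ears at 3 days and 21.8-fold lower at 7 days, and of all 45037 probe sets it had the 22nd and the 23rd greatest change in either direction. Asic1, the widely expressed neuronal subunit, was 3.61-fold and 3.85-fold lower. P2rx7 was 1.85-fold higher in ouabain ears at 3 days and level with control ears at 7 days, whereas P2rx2 was level at 3 days and 1.84-fold higher at 7 days. Asic2 and Asic4 lay within 0.09 of the control mean on the log2 scale at both days.

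Promoter sequences are shown for the 3 genes whose levels moved most, since the Asic genes moved in one direction and P2rx7 in the other and for a short time. RefSeq promoter entries (GRCm38.p6) were matched for 5 of the 8 genes in 7 entries, and the 250 bases before an annotated start are printed 5′ to 3′ on the strand of the gene. Capitals mark matches, on either strand, to the AP-1 motif TGANTCA, the GC box GGGCGG and the E-box CANNTG. The Asic3 window is chr5:24413201-24413450 (plus strand), the Asic1 window is chr15:99691974-99692223 (plus strand, before a transcript start inside the span of the gene), and the P2rx7 window is chr5:122643677-122643926 (plus strand).
Asic3: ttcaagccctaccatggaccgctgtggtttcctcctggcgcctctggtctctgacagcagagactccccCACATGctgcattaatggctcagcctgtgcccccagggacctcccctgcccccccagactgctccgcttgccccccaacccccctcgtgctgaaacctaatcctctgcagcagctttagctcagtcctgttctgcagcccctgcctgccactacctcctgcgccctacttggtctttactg
Asic1: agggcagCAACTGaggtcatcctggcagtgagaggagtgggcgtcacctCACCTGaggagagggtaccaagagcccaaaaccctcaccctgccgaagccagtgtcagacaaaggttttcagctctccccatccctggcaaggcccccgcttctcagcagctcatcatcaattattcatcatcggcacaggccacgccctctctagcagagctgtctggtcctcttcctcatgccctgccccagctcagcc
P2rx7: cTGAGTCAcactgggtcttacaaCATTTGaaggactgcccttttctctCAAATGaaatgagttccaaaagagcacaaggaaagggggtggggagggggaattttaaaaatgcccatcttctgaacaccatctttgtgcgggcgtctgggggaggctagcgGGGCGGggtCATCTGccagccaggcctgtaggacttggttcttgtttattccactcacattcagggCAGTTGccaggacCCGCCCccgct

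The Asic3 window held 1 E-box, 181 bases before the start, and the Asic1 window held 2, at 243 and 201 bases. The P2rx7 window held 4 E-boxes, GC boxes 90 and 11 bases before the start, and 1 AP-1 match, TGAGTCA, 249 bases before it. A second P2rx7 entry, before another annotated start (chr5:122650133-122650382, plus strand, not printed), held 2 E-boxes and neither a GC box nor an AP-1 match. Among all 32851 mouse promoter windows of this length, 66.2% held an E-box, 32.7% a GC box and 6.75% an AP-1 match. The cyclic AMP response element TGACGTCA and the TATA box TATAAA, held by 1.55% and 12.4% of all windows, were in none of the windows of the 5 genes. These are matches of letters only.

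Called means a limma adjusted p under 0.05 (Benjamini-Hochberg, over all 45037 probe sets) together with a fold change above 1.5, and calls of the 8 genes in ouabain against control are counted but not used as a test. At 3 days 4 of the 15 probe sets were called, 2 higher and 2 lower, beside 12.3% of all probe sets. At 7 days 3 were called, 1 higher and 2 lower, beside 12.7% of all. The groups did not overlap for 8 of the 15 probe sets at 3 days and for 7 at 7 days, compared with 37% and 38.3% of all probe sets. The median log2 fold change over the 15 probe sets was 0.03 at 3 days and −0.06 at 7 days, and that of all probe sets was 0.02 and 0.03. The called probe sets belonged to Asic1, Asic3 and P2rx7 at 3 days and to Asic1, Asic3 and P2rx2 at 7 days. A filter of a log2 signal above 6 on at least 3 arrays was passed by 9 of the 15 probe sets and 6 of the 8 genes, and all 15 are described here.

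**Figure D1:**
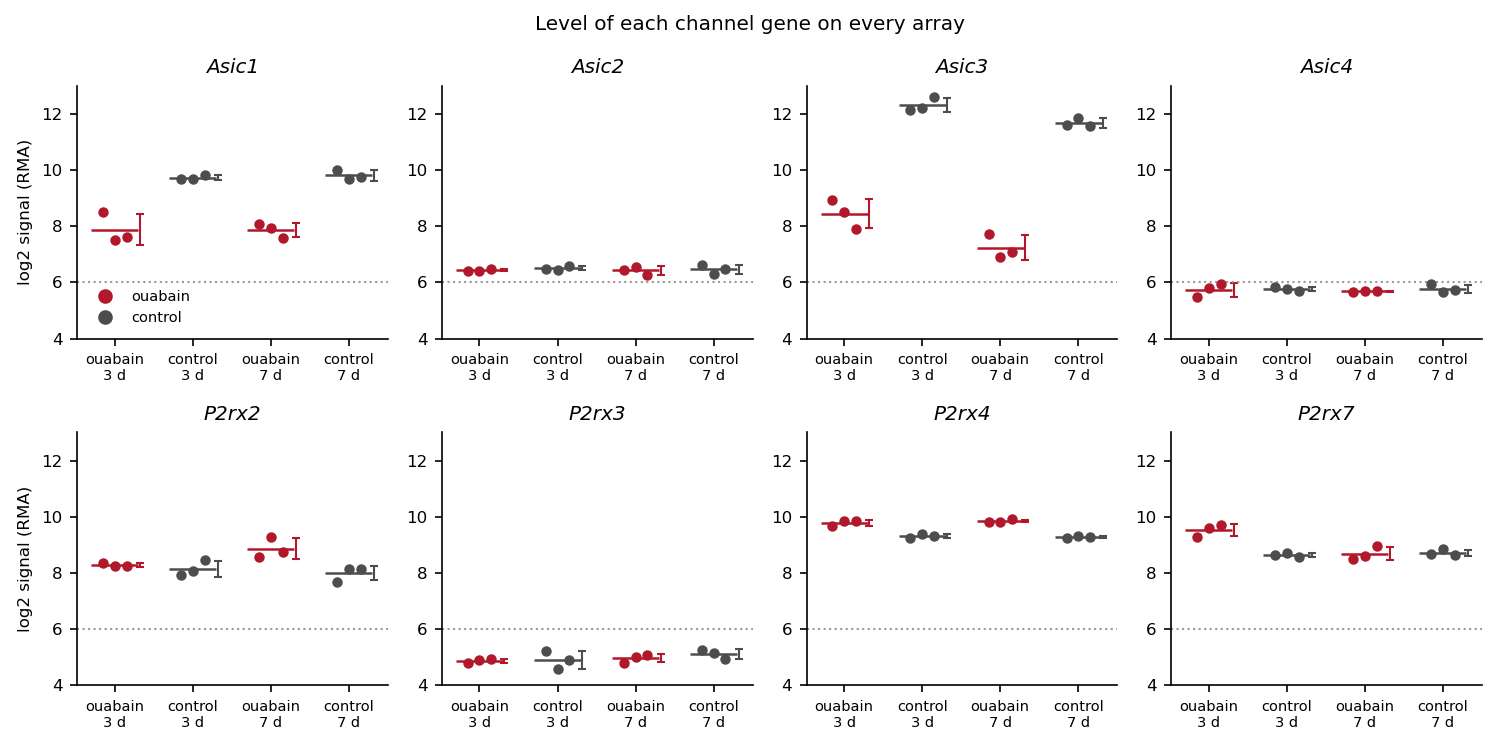
Log2 signal (RMA) of the brightest probe set of each gene on every array, with ouabain ears in red and control ears in grey at 3 and 7 days. Short lines are group means and bars are SD (n = 3), and the dotted line marks a log2 signal of 6. The Asic1 and Asic3 points of ouabain ears lie below all control points, and P2rx7 of ouabain ears stands above the control points at 3 days and among them at 7 days.

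Asic3 was read by 1 probe set. Its log2 signals were 8.94, 8.50 and 7.92 in ouabain ears at 3 days, against 12.15, 12.21 and 12.59 in control ears. At 7 days they were 7.73, 6.89 and 7.09 in ouabain ears, against 11.61, 11.87 and 11.57 in control ears. Within each day the highest ouabain array thus stood more than 3 log2 units under the lowest control array, and even the lowest stayed above the array median. Ouabain minus control was −3.87 at 3 days and −4.45 at 7 days on the log2 scale (standard error 0.25 each). Tissue holds several cell types here, and fewer neurons and less Asic3 RNA per neuron cannot be told apart. In the reference annotation the span of Asic3 overlaps Cdk5, a kinase of neurons, whose 3 probe sets differed by −0.60 to −0.20 at 3 days and by −0.72 to −0.53 at 7 days on the same scale.

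Ouabain ears were also compared between the days. This is not the comparison by which the genes were selected. It uses the same ouabain arrays as the ouabain against control values, so its p-values and counts of calls are descriptions. Asic3 averaged 7.24 ± 0.44 in ouabain ears at 7 days and 8.45 ± 0.51 at 3 days (SD, n = 3 each), a difference of −1.22 (standard error 0.25, limma adjusted p = 0.0181), and all 3 arrays at 7 days lay below all 3 at 3 days. Control ears also differed in that direction, with 11.68 ± 0.16 at 7 days and 12.32 ± 0.24 at 3 days and a difference of −0.64 that did not pass (limma adjusted p = 0.712). The difference of the ouabain response between the days was −0.58 (95% interval −1.37 to 0.20, limma adjusted p = 0.551), so a deeper loss at 7 days relative to control was not shown. The call between ouabain ears was lost without ouabain replicate 2 at 3 days (adjusted p = 0.0643), without ouabain replicate 2 at 7 days (adjusted p = 0.0747) and without ouabain replicate 3 at 7 days (adjusted p = 0.0555), in the same limma model.

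Asic1 was read by 1 probe set as well. Its log2 signals were 8.52, 7.50 and 7.62 in ouabain ears at 3 days, against 9.69, 9.67 and 9.84 in control ears. At 7 days they were 8.07, 7.95 and 7.59 in ouabain ears, against 10.02, 9.67 and 9.75 in control ears. No ouabain array reached a control array, and replicate 1 was the highest of the ouabain arrays at both days. The log2 fold changes were −1.85 and −1.95 at the earlier and later day (standard error 0.22 each). The response differed by −0.09 between the days (95% interval −0.78 to 0.60, limma adjusted p = 0.941), and ouabain ears differed by −0.01 between 7 and 3 days (95% interval −0.50 to 0.48).

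The other acid-sensing subunits did not separate the groups. Asic2, a subunit that forms mixed channels with Asic1 and Asic3, lay between 6.27 and 6.56 in ouabain ears and between 6.29 and 6.63 in control ears over both days. Its log2 fold change was −0.07 at 3 days (95% interval −0.29 to 0.16) and −0.04 at 7 days (95% interval −0.26 to 0.19). Asic4, which is not known to be gated by protons on its own, stayed under 6 on all 12 arrays, and its log2 fold changes were −0.03 and −0.09 (standard error 0.12 each). A change of Asic2 within these intervals was not detectable, and at the level of Asic4 a low signal does not separate weak expression from background.

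**Figure D2:**
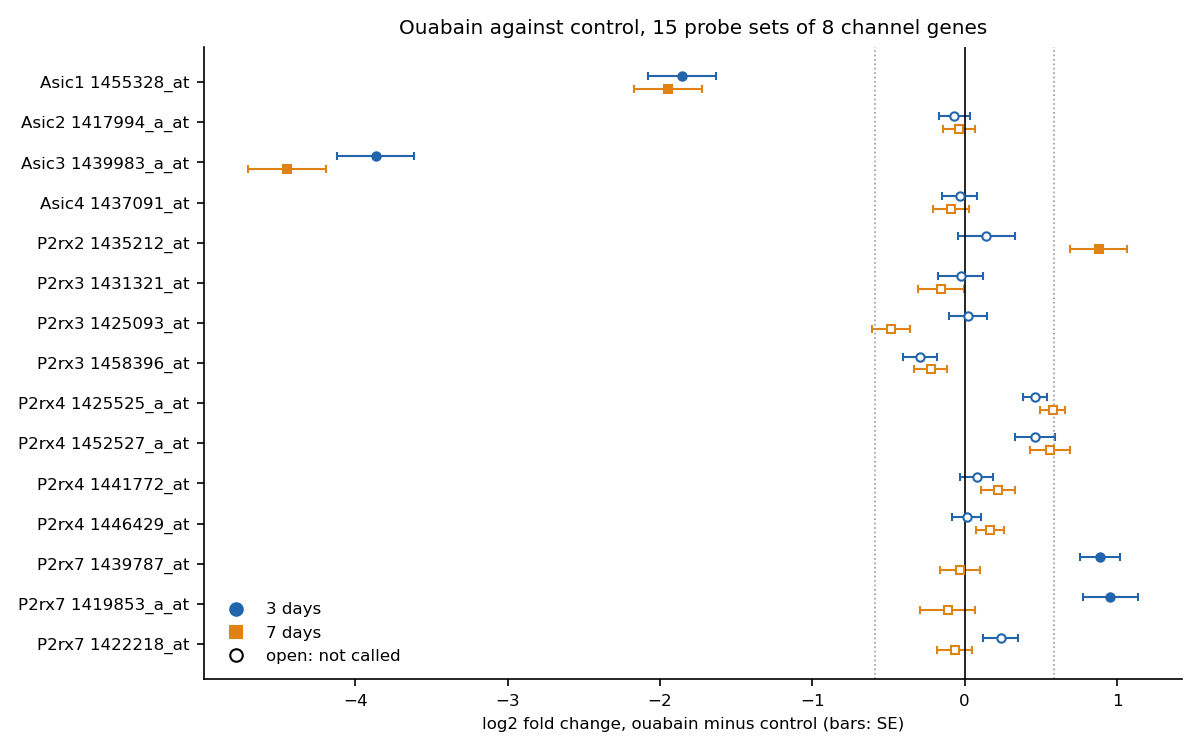
Log2 fold change of ouabain over control for the 15 probe sets, with circles for 3 days, squares for 7 days, bars for the standard error and filled symbols for called probe sets. Dotted lines mark a fold change of 1.5. Asic1 and Asic3 lie to the left at both days, P2rx7 to the right at 3 days and P2rx2 to the right at 7 days.

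Among the ATP-gated channels, P2rx7 moved early. The log2 signals of its brightest probe set were 9.28, 9.59 and 9.70 in ouabain ears at 3 days, against 8.64, 8.69 and 8.57 in control ears, and the groups did not overlap. At 7 days they were 8.50, 8.59 and 8.95 in ouabain ears, against 8.67, 8.83 and 8.62 in control ears, and the groups overlapped. The log2 difference between the groups was 0.89 at the earlier day and −0.03 at the later day (standard error 0.13 each). A second probe set gave 6.20, 6.45 and 7.11 in ouabain ears at 3 days, against 5.54, 5.65 and 5.71 in control ears, and its log2 fold change was 0.96 then and −0.11 at 7 days. The dimmest probe set stayed under 6 on every array and had 0.24 and −0.06.

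On its brightest probe set P2rx7 averaged 8.68 ± 0.24 in ouabain ears at 7 days and 9.53 ± 0.22 at 3 days (SD, n = 3 each). The difference was −0.84 (standard error 0.13, limma adjusted p = 0.0037). It comes from the same ouabain arrays as the values above, so it is not separate support and its p-value is a description. The second probe set had a difference of −1.04 (standard error 0.18, limma adjusted p = 0.00642), and on both probe sets all arrays at 7 days lay below all arrays at 3 days. With Asic3 this made 3 of the 15 probe sets called between ouabain ears of the 2 days, all lower at 7 days, beside 2.81% of all probe sets, of which 1.67% were lower. The response of P2rx7 at 7 days minus that at 3 days was −0.92 (standard error 0.19, limma adjusted p = 0.0454). This difference is made from the ouabain against control values by which the genes were selected, so its p-value is a description. The brightest P2rx7 probe set was the only one of the 15 called in this test, beside 0.822% of all probe sets. The second P2rx7 probe set had −1.07 without passing (limma adjusted p = 0.0816). The P2rx7 call in this test was lost in 10 of 17 alternative settings, namely without any 1 of the 6 control arrays, ouabain replicates 2 or 3 at 3 days, or ouabain replicates 1 or 2 at 7 days (limma adjusted p up to 0.126), and the difference stayed between −1.05 and −0.83 in the 17 settings.

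None of the 15 probe sets was called between control ears at 7 and 3 days (limma), beside 0.0111% of all probe sets, while 2 had an unadjusted p under 0.05. These were Asic3 and a dim P2rx3 probe set, with differences of −0.64 and 0.32. For Asic3 every control array at 7 days lay below every control array at 3 days.

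P2rx2, the ATP-gated subunit best known from the cochlea, moved late. Its log2 signals at 3 days were 8.36, 8.25 and 8.23 in ouabain ears, against 7.91, 8.06 and 8.45 in control ears, and the groups overlapped. At 7 days they were 8.58, 9.27 and 8.74 in ouabain ears, against 7.69, 8.13 and 8.13 in control ears, and every ouabain array was above every control array. On the log2 scale ouabain minus control was 0.14 at 3 days, and 0.88 at 7 days (standard error 0.19 each). The difference between the responses was 0.74 (95% interval 0.16 to 1.32) and did not pass over all probe sets (limma adjusted p = 0.252), nor did ouabain ears at 7 days against 3 days, with 0.58 (limma adjusted p = 0.105). The day differences of P2rx7 and P2rx2 were not compared with each other. Both are made from the ouabain against control values used in the selection.

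P2rx4, a channel of macrophages and microglia that cycles through lysosomes, was modestly higher in ouabain ears at both days. The brightest of its 4 probe sets gave 9.65, 9.83 and 9.85 in ouabain ears at 3 days, against 9.25, 9.38 and 9.32 in control ears. At 7 days it gave 9.82, 9.83 and 9.90 in ouabain ears, against 9.23, 9.31 and 9.28 in control ears. The groups did not overlap at either day, and ouabain arrays averaged 0.46 more at 3 days and 0.58 more at 7 days on the log2 scale (standard error 0.08 each). These correspond to 1.38-fold and 1.49-fold, just under the fold threshold of 1.5, so the probe set was not called. For the next brightest probe set these differences were 0.46 and 0.56 (standard error 0.13 each), also without overlap, and the other probe sets had 0.08 and 0.22, and 0.01 and 0.17. P2rx4 and P2rx7 are neighbours on chromosome 5, and ouabain ears at 7 days against 3 days differed by 0.07 (95% interval −0.10 to 0.25) for P2rx4 and by −0.84 for P2rx7, a contrast between the genes that was not itself tested. Camkk2, a kinase gene whose span overlaps P2rx4, differed by −0.06 to 0.05 at 3 days and by −0.10 to 0.01 at 7 days (log2) over its 4 probe sets.

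P2rx3, the subunit of small pain-sensing neurons, was read by 3 probe sets that stayed under 6 on every array. Their log2 fold changes were −0.02, 0.03 and −0.29 at 3 days and −0.16, −0.48 and −0.22 at 7 days. None was called at either day. The groups were apart for 1 probe set at 3 days (−0.29) and for another at 7 days (−0.48), and for none at both days. The first of these had −0.22 at 7 days. The −0.48 had a limma adjusted p of 0.0131 but was under the fold threshold. At these signals a difference may not be detectable.

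Marker genes of several cell types in the tissue also differed between ouabain and control ears. At each day 9 of 12 spiral ganglion neuron markers were called lower, 1 higher and 2 neither way. Their median log2 fold change was −2.08 at the earlier and −3.11 at the later day. Summed over the list, their log2 signal was 13.23 to 14.56 in ouabain ears and 15.77 to 15.82 in control ears at 3 days, and 12.37 to 13.72 in ouabain ears and 15.66 to 15.80 in control ears at 7 days. The higher one was Prph, an intermediate filament of type II and other peripheral neurons. All 9 macrophage markers were called higher at 3 days, and 8 of them at 7 days, the median log2 fold changes being 1.67 and 1.77. Their summed log2 signal was 13.51 to 13.83 in ouabain ears and 11.84 to 12.26 in control ears at 3 days, and 13.79 to 13.88 in ouabain ears and 12.10 to 12.29 in control ears at 7 days. The myelin gene Mbp averaged 13.79 over the 12 arrays and the neurofilament Nefl 12.19, while the sodium channel Scn9a was dim at 4.34. Genes of other tissue were bright as well, Otos of the lateral wall at 13.95 and S100a8 of neutrophils at 12.33, so the preparations were not nerve alone. Among 6 measured glial markers, Fabp7 and Ngfr were higher at both days, Sox10 was higher and Pmp22 lower at 7 days. Of the markers of hair and supporting cells, lateral wall, osteoclasts, osteoblasts, neutrophils and erythroid cells, 21 in all, none was called at either day. The lack of calls does not show equal levels of these tissues. Acp5 of osteoclasts differed by 1.89 at 3 days (limma adjusted p = 0.0854) and Col1a1 of osteoblasts by 1.33 at 7 days (limma adjusted p = 0.0582). Otos differed by −0.34 at 3 days without overlap (limma adjusted p = 0.0057), under the fold threshold.

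Over the 12 arrays the level of Asic3 followed the mean of the neuron markers with r = 0.96, and that of Asic1 with r = 0.95. P2rx4 followed the mean of the macrophage markers with r = 0.98, while P2rx7 had r = 0.57 and P2rx2 r = 0.61. With the mean of the 6 glial markers P2rx4 had r = 0.95, P2rx7 r = 0.65 and P2rx2 r = 0.58. These correlations are descriptions, since the arrays fall into ouabain and control clusters that set most of the value, and Asic1 against P2rx4 gave r = −0.99. High values were not limited to a single cell type. Asic1 had r = −0.97 with the macrophage markers and −0.96 with the glial markers. With the neuron markers P2rx4 had r = −0.95 and P2rx2 r = −0.75. Within the ouabain arrays the replicates at 3 days differed from the control mean by −3.38, −3.82 and −4.40 for Asic3 and by −1.22, −2.23 and −2.11 for Asic1. The median neuron marker differed by −1.12, −2.69 and −2.47 in the same arrays, so replicate 1 was the mildest in all of these measures. At 7 days replicate 1 was again the mildest, with −3.96 for Asic3, −1.75 for Asic1 and −1.99 for the neuron markers. Without replicate 1 at 3 days the log2 fold changes of Asic3 and Asic1 were −4.11 and −2.17. Macrophage markers in replicates 1 to 3 differed by 1.53, 1.60 and 1.93 at 3 days and by 1.90, 1.77 and 1.72 at 7 days, and P2rx7 by 0.65, 0.96 and 1.07 at 3 days and by −0.21, −0.11 and 0.24 at 7 days. Single macrophage markers took different courses, with Cd68 at 2.33 at 7 days and 3.08 at 3 days, Itgam at 0.68 and 1.28, and C1qb at 2.31 and 2.07. The part of neuron, glial and macrophage numbers in the channel levels was not tested.

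**Figure D3:**
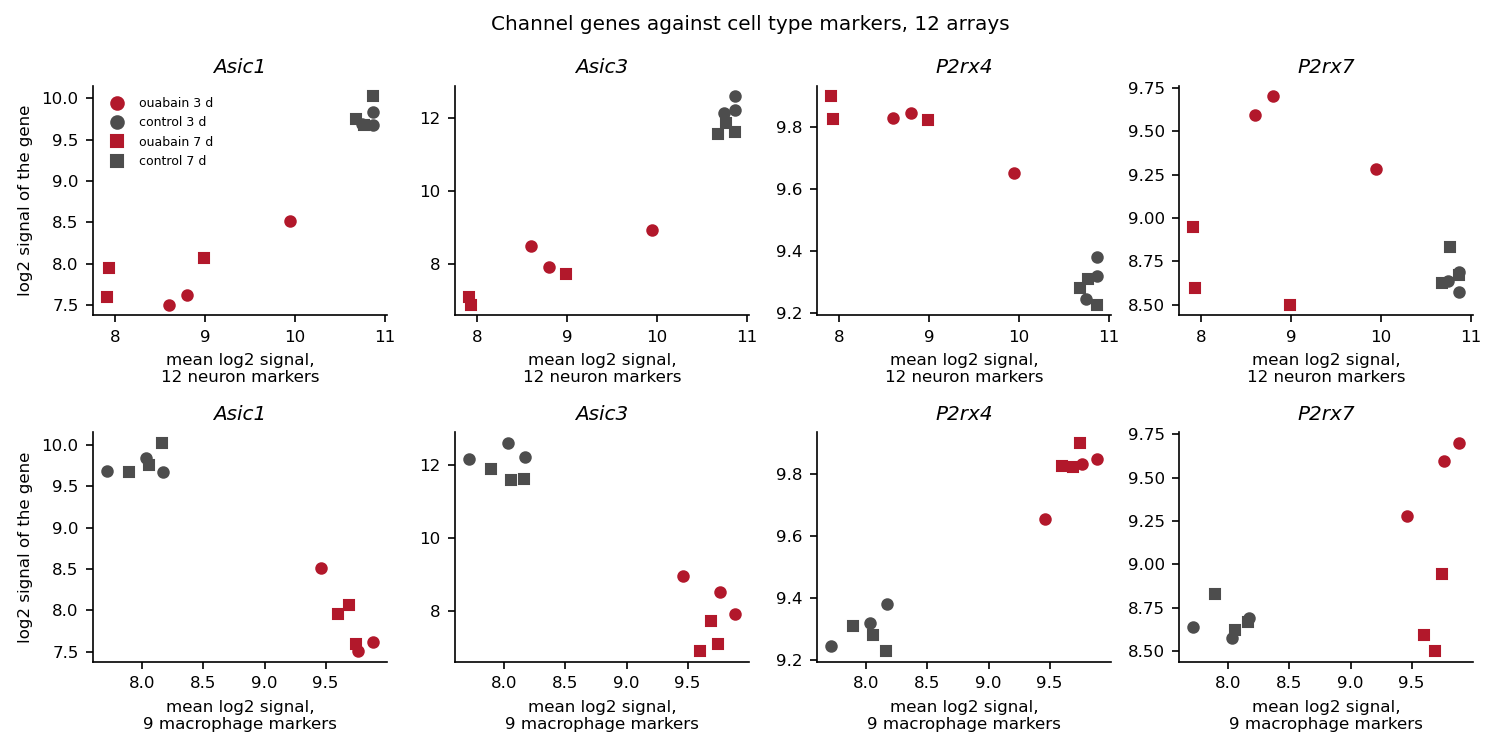
Log2 signal of Asic1, Asic3, P2rx4 and P2rx7 against the mean log2 signal of 12 neuron markers (upper row) and 9 macrophage markers (lower row), 1 point per array, with ouabain ears in red, control ears in grey, circles for 3 days and squares for 7 days. Ouabain and control arrays form separate clusters, and for P2rx7 the 7-day ouabain squares fall to the level of the control arrays while the mean of their macrophage markers stays above that of the control arrays.

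The genes whose 12 log2 signals ran most like Asic3, of 18192 other genes, were Slitrk1, a neuronal adhesion protein (r = 0.995), Rbfox1, a neuronal splicing factor (r = 0.994), Coro6, an actin-binding coronin (r = 0.994), Clgn, a chaperone of the endoplasmic reticulum (r = 0.993), and Drp2, a dystrophin-related protein (r = 0.992). Slitrk1 had log2 fold changes of −3.12 and −3.90, and Clgn −3.27 and −4.16, close in size to Asic3. Most like Asic1 were Dner, a Notch ligand of neurons (r = 0.997), Nmnat2, an axon survival enzyme (r = 0.996), Clstn3, a synaptic adhesion protein (r = 0.995), Camta1, a transcription factor of neurons (r = 0.994), and Arhgap44 (r = 0.994). Nmnat2 had log2 fold changes of −2.26 and −2.45. Asic1 and Asic3 themselves had r = 0.95. The course of P2rx7 was chosen for this look after its values were seen. Itga6, a laminin receptor subunit (r = 0.98), and Fosl1, an AP-1 transcription factor (r = 0.98), ran most like it. Their log2 fold changes were 0.74 and 2.08 at 3 days and 0.03 and 0.07 at 7 days. Acadl (r = 0.98), Rdh5 (r = 0.97) and Ranbp1 (r = 0.97) followed, with 1.09, 1.48 and 0.39 at 3 days and −0.04, −0.03 and −0.08 at 7 days. Most like P2rx2 were Tmprss6 (r = 0.98) and Il17re (r = 0.97), with 0.06 and 0.19 at 3 days and 0.55 and 0.65 at 7 days.

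The genes around these channels in ATP and proton signalling were counted in 9 lists of 56 genes, of which 48 were measured. At 3 days 9 were higher and 2 were lower, or 22.9%, and at 7 days 14 were higher and 3 were lower, or 35.4%, beside the 12.3% and 12.7% of all probe sets given above. Each of the 48 was read by its brightest probe set, whereas the shares of all are over every probe set, dim ones included. The bases therefore differ. The median log2 fold change of the 48 was 0.07 at 3 days and 0.29 at 7 days. The lists were drawn up with results of these arrays known.

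Among other channels of the same families, P2rx6, a P2X subunit that forms channels poorly on its own, was lower. Its log2 signals were 5.97, 5.12 and 5.63 in ouabain ears at 3 days, against 7.76, 7.79 and 8.01 in control ears. Ouabain minus control was −2.28 at 3 days, and −2.11 at 7 days (standard error 0.17 each, limma adjusted p = 2.26e-06 and 3.6e-06), and a second probe set was also lower, with −1.07 and −1.23. P2rx6 was thus lower at both days as Asic1 and Asic3 were, and P2rx1 and P2rx5 were not called at either day. Of 4 other channels of the epithelial sodium channel family, to which the Asic genes belong, Scnn1b alone was called, with 0.64 at 7 days (limma adjusted p = 0.0469), and that call was lost in 14 of 21 settings, over which the value ranged between 0.40 and 0.86. Of 4 proteins that bind acid-sensing channels none was called, with Pick1, a scaffold that binds Asic1 and Asic2, at −0.47 and −0.45 and Stoml1 at −0.46 and −0.36. Without ouabain replicate 1 at 3 days Stoml1 was called, at −0.62. Of 5 other proton sensors only Gpr65, a proton-sensing receptor of leukocytes, was called, higher by 1.13 at 3 days and 1.14 at 7 days (standard error 0.25 each), and by the methods' t-test after Benjamini-Hochberg adjustment it did not pass at either day.

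The metabotropic receptors for nucleotides were mostly higher or level. Of 8 measured, 4 passed as higher at 3 days, 5 did at 7 days, and none was lower. P2ry12, a receptor for ADP on microglia and platelets, rose by 1.51 and 1.60, P2ry13 by 1.39 at the later day, P2ry6, a receptor for UDP, by 1.63 and 1.62, and P2ry14, a receptor for UDP-sugars, by 1.10 and 1.90. These 4 genes were called at both days, P2rx7 was called at 3 days, and P2rx4 was called at neither. Of 4 adenosine receptors only Adora3 was measured and it was not called, with 0.02 and −0.08.

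Among 9 measured enzymes that break down extracellular nucleotides, 1 was called higher at 3 days, 3 were called higher at 7 days and none was called lower, with median log2 fold changes of 0.02 and 0.58. Entpd2, which turns ATP into ADP and is known from glia, changed most. Its log2 signals were 9.14, 9.38 and 9.48 in ouabain ears at 3 days, against 6.86, 6.81 and 6.75 in control ears, and 10.34, 10.48 and 10.80 in ouabain ears at 7 days, against 6.90, 6.51 and 6.89 in control ears. On the log2 scale the gene rose by 2.52 at 3 days, and by 3.77 at 7 days (standard error 0.14 each, limma adjusted p = 3.27e-07 and 2.17e-08). Entpd1 was higher at 7 days by 0.86 on its brightest probe set, which had 0.28 at 3 days and was not called then. Its other probe sets had 0.90 each at 7 days, and at 3 days 0.61, called higher, and 0.37, not called. Nt5e, which makes adenosine from AMP, was higher at 7 days by 0.65, while Entpd3 (−0.68 and −0.24) and Entpd6 (−0.36 and −0.15) were not called. The Nt5e call rested on 1 of 3 probe sets and was lost in 4 of 21 settings, among them without control replicate 2 (0.52) or ouabain replicate 1 (0.49) at 7 days.

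Among 8 channels and transporters that release ATP, Panx2, a pannexin of neurons, was lower. It differed by −3.42 at 3 days and −3.35 at 7 days (standard error 0.28 each, limma adjusted p = 4.62e-06 and 5.1e-06). In ouabain ears it lay at 3.73 to 5.15 at 3 days and at 4.01 to 4.45 at 7 days. Such low signals do not separate weak expression from background, so the size of its change is uncertain. Panx1, the pannexin that works with P2rx7 in ATP release, gave 8.04, 8.22 and 8.27 in ouabain ears at 3 days, against 8.57, 8.57 and 8.77 in control ears, and 7.02, 6.72 and 6.92 in ouabain ears at 7 days, against 8.56, 8.58 and 8.44 in control ears. Its log2 fold change was −0.46 at 3 days, not called, and −1.64 at 7 days (standard error 0.10 each, limma adjusted p = 7.47e-07 at 7 days). Calhm2 was higher by 0.66 and 0.77. Of 6 inflammasome genes linked to P2rx7, the protease Casp1 rose by 1.39 and 1.12 and the adaptor Pycard by 1.39 and 1.14 at 3 and 7 days, and Gsdmd, the pore-forming protein, by 0.59 at 7 days, while Nlrp3, Il1b and Il18 were not called. The Gsdmd value stood at the fold threshold, and the call was lost without control replicate 2, ouabain replicate 1 or ouabain replicate 2 at 7 days, at 0.57 to 0.58. Casp1 and Pycard thus stayed above control at 7 days, when P2rx7 was level.

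**Figure D4:**
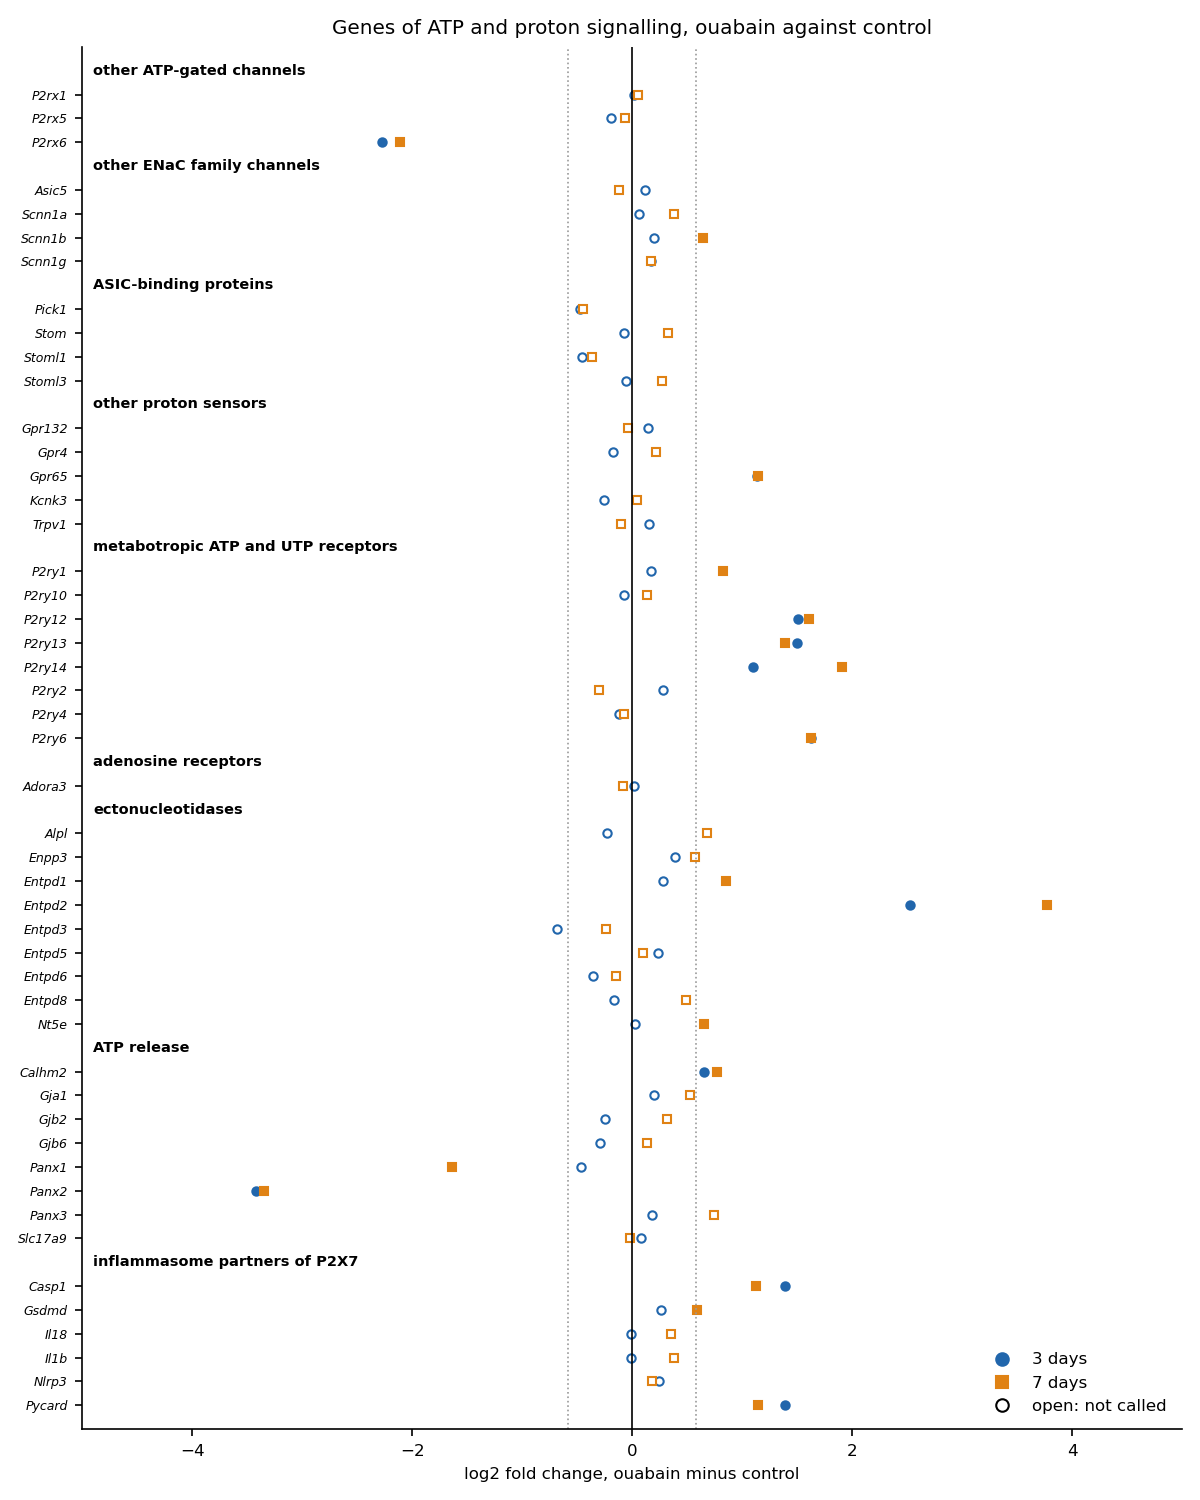
Log2 fold change of ouabain over control for the 48 measured genes of ATP and proton signalling by list, with circles for 3 days, squares for 7 days and filled symbols for called genes. Dotted lines mark a fold change of 1.5. Panx2 and P2rx6 lie far to the left at both days and Entpd2 far to the right, at 2.52 and 3.77.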

How the data were processed

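The authors processed Affymetrix whole-genome mouse arrays by RMA in Affymetrix Expression Console (also by MAS5), with tool versions not given in the sources used here, and the deposited values are log2 signals per probe set and array, used without further normalization. The 64 control probe sets did not enter. Symbols of genes are those of the platform annotation. The 932 probe sets that carry more than 1 symbol and the 9160 that carry none entered the fit but stand for no gene. Genes on a list that had no probe set of exactly their name were not analysed here.

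In R 4.3.3, limma 3.58.1 (lmFit and eBayes) was run with 4 group means on all 12 arrays, with Benjamini-Hochberg adjustment over 45037 probe sets. The procedure was tested on simulated data. The 8 genes, the related lists and the marker lists were chosen with earlier results of these data known. Named were all 8 genes with every probe set, up to 4 called genes of each related list with the largest change (2 where none was called), and the 5 genes most alike to Asic3 and Asic1 by Pearson r. The 5 genes most alike to P2rx7 and the 2 most alike to P2rx2 were added after the values of these channels were seen. Replicate numbers were not taken as pairs, since neither labels nor methods tie a number to an animal. The correlation of same-numbered arrays lay between 0.02 and 0.33 and was not above 0.1 in every pair. Control ears came from treated mice, so pools may share animals, and the main fit does not use such pairing. Alternatives were a fit per day, a replicate block, other fold thresholds, a filter on dim probe sets, other normalizations and moderation, array weights, the methods' t-test, probe-set means and leaving out each array. The methods' t-test was an unpaired test at p under 0.05 with a fold change above 1.5.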

Additional observations from a re-analysis of the deposited data

Results flagged for a closer look

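The difference of responses between the days was called by limma in 1 of the 8 channel genes and in 2 of the 48 related genes. Of all probe sets 0.822% were called. The difference is made from the ouabain against control values by which the channel genes were selected. The related lists were drawn up with results of these arrays known, so these calls are descriptions. For P2rx7 the response at 7 days minus that at 3 days was −0.92 (standard error 0.19, adjusted p = 0.0454), the response being 0.89 at 3 days and −0.03 at 7 days. For Panx1 the difference was −1.18 (standard error 0.14, adjusted p = 0.00321), with all 3 ouabain arrays below all 3 control arrays at both days. For Entpd2 it was 1.25 (standard error 0.20, adjusted p = 0.0126), with all 3 ouabain arrays above all 3 control arrays at both days. The Panx1 and Entpd2 calls held in all 17 settings tried. The P2rx7 call did not: it was lost without any 1 of the 6 control arrays, without ouabain replicate 2 or 3 at 3 days and without ouabain replicate 1 or 2 at 7 days (adjusted p of up to 0.126).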

How the results depend on the processing

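Asic1 and Asic3 were called lower at both days and P2rx7 higher at 3 days under the 21 alternatives that keep the fold threshold of 1.5. With a fold above 2, P2rx7 lost its call, at 1.85-fold and 1.94-fold on its 2 called probe sets. Over the 21, Asic3 ranged between −4.11 and −3.60 at 3 days and between −4.69 and −4.27 at 7 days. The number of the 15 probe sets called at 7 days was 6 with no fold threshold, against 3, and at 3 days it was 2 with a fold above 2, against 4. The day difference of responses had 0 called with a fold above 2, against 1. Leaving out 1 array gave 4 called at 3 days in each case, 3 to 5 at 7 days and 0 to 2 for the difference of responses. With the replicate block 4 probe sets were called at 3 days and 3 at 7 days, the same counts as without the block. The shares of all probe sets called in these settings are not given here, so the counts are not read as high or low. In their deviations from the group means, 4 of 6 ouabain arrays correlated best with the control array of their own number, and among the channel genes and the related genes named the block changed the call of Scnn1b alone, whose adjusted p was 0.0845 at 7 days. By the methods' t-test after Benjamini-Hochberg, P2rx2 was not called at 7 days (adjusted p = 0.113), nor were Gpr65 (0.0559 at 3 days and 0.124 at 7 days), P2ry6 (0.0865) and P2ry12 (0.0574) at 3 days, and P2ry14 (0.0519), Calhm2 (0.0664), Nt5e (0.153) and Scnn1b (0.3) at 7 days. Calhm2 at 3 days was under the fold threshold with array weights (0.58), and Pycard at 7 days was with the mean over its probe sets (0.56). P2rx4 at 7 days was called without control replicate 2, ouabain replicate 1 or ouabain replicate 2 at that day, at 0.59 to 0.60 against 0.58 with all arrays. Over counts of calls, 88 of the 103 alternative values lay within 1.5 times the value reported, and of the values of single genes 1266 kept their side of the threshold, 43 lost a call, 4 gained one and 0 turned direction when called. Causes were not tested. Dim probe sets limit what can be said of Asic4 and P2rx3, and dim signals in ouabain ears limit the size given for Panx2.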
